A study of Mus musculus with 16 samples.

Results

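Ubiquitin-conjugating enzymes (E2s) carry activated ubiquitin, or a ubiquitin-like protein, from an E1 enzyme to a target that an E3 ligase selects, and the E2 helps to decide which chain is built. The genes described here are those whose symbol starts with Ube2 in RNA-immunoprecipitation and sequencing (RIP-seq) of CPEB4, a cytoplasmic polyadenylation element-binding protein, in mouse bone marrow-derived macrophages (BMDMs). The prefix picked 75 of 30622 3′-UTR regions with a gene symbol, which belong to 32 of 14925 genes, and the region with the most reads stood for each gene. One of the 32, Ube2cbp, is named for binding an E2 and is a member by its symbol alone.

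Wild-type (WT) BMDMs, culture 76, and constitutive CPEB4 knockout (KO) BMDMs, culture 73, both of the strain C57BL/6J 129, were left untreated or were given lipopolysaccharide (LPS, a bacterial cell wall component, 10 ng/ml) for 9 h. BMDMs are macrophages grown from bone marrow with M-CSF, and whether the cultures came from one animal or from pools is not given in the sources used here. RNA recovered with an antibody to CPEB4 (RIP) was sequenced beside total lysate RNA (Input), and the KO RIP, in which the antibody lacks its target protein, is the background of the WT RIP. The 16 samples are 8 libraries run on 2 lanes each, so each combination of genotype, treatment and assay has a single library and no difference below has a replicate check.

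In macrophages, E2s serve several well-known routes. Ube2n with Ube2v1 or Ube2v2 builds the lysine 63-linked chains of Toll-like receptor signalling, Ube2l6 attaches the interferon-induced modifier ISG15, and Ube2m and Ube2f attach NEDD8. CPEB4 binds 3′-UTRs at CPEs (cytoplasmic polyadenylation elements), which are U-rich and short. A pair of CPEs close together is known for repression, and a CPE near the polyadenylation hexamer for activation, of translation.

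Per library, 467696 to 2492300 reads fell in regions with a symbol, fewest in the untreated KO RIP. The Cpeb4 region, which checks the labels, held 121, 69, 258 and 79 Input reads (untreated WT, untreated KO, then WT and KO with LPS), and the WT over KO log2 ratio was 1.31 (95% counting interval 0.89 to 1.74) untreated and 1.36 (1.0 to 1.72) with LPS. In the RIP over Input ratio, Cpeb4 lay at 2.67 (2.40 to 2.94) in WT and 2.29 (1.87 to 2.72) in KO untreated, and at 2.5 (2.31 to 2.68) and 2.79 (2.44 to 3.14) with LPS, so this region was also high in the KO RIPs. Reads of the KO cultures on this 3′-UTR remained, and whether the deleted part includes it is not given in the sources used here. The 11 of 12 macrophage markers in the table summed to 2806 to 3849 CPM (reads scaled to 1000000 reads in regions with a symbol) in the Inputs, and those of T cells, B cells, neutrophils and fibroblasts to at most 2.26, with Cd3e, Cd3d, Ms4a1, Cxcr2 and Pdgfra at 0. The table held 1 of 4 neutrophil markers. The 6 LPS response genes summed to 55.8 in the lowest Input and to 2100.0 in the highest.

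The regions of the 32 genes ran from 37 bases (Ube2g1) to 4039 bases (Ube2k). The sites below, from the mouse genome build GRCm38.p6 (mm10), are shown because they lie in genes whose RIP ratios are described at length below. The sequence is that of the transcript strand, 5′ to 3′, with the CPE in capitals.
Ube2d1, consensus CPE (chr10:71255442-71255471, minus strand): agatgtcgtcacTTTTATacatctggattc
Ube2d1, non-consensus CPE (chr10:71255383-71255412, minus strand): aatttgtatttTTTTACTgtatagactaaa
Ube2h, consensus CPE (chr6:30214853-30214882, minus strand): caaagcaattttTTTTATtactaaacaagg
Ube2n, consensus CPE (chr10:95542667-95542696, plus strand): gttttattttaaTTTTATggcccccttccc
Ube2q2, consensus CPE (chr9:55207427-55207456, plus strand): ttttttttttgaTTTTATttttcattgcag
Ube2g2, consensus CPE (chr10:77645882-77645911, plus strand): aaaacaaagtatTTTTATtcatttgtattt
Ube2v1, consensus CPE (chr2:167607817-167607846, minus strand): agagctcggtggTTTTATtttaagcacgtg

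In Ube2n further CPEs stand in lower case before the capitals, the nearest of which overlaps the capitals, and in Ube2q2 one follows them. The closest CPE pair without overlap was 5 bases apart in Ube2n, 0 bases in Ube2q2, and 13 bases in Ube2h. The pair of Ube2d1 shown above was 52 bases apart. Ube2g2 and Ube2v1 held a single CPE, and Ube2l6 and Ube2m held none. The authors predicted repression alone for 11 of the 32 genes, some form of activation for 3 (Ube2g2, Ube2q2 and Ube2t) and neither for 18. In each of the 11, a consensus CPE had another CPE at most 31 bases away. Among the 8 genes without a prediction that held a pair without overlap, the gap ran from 52 bases, that of Ube2d1, to 1319. The rule of the prediction takes pairs up to 50 bases apart. Overlapping CPEs were not taken as pairs here, and some genes without a prediction hold them, such as Ube2d3 and Ube2j2.

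Levels differed widely among the genes. Scaled to region length, the mean Input level was highest for Ube2m (408 CPM per kilobase), followed by Ube2l6 (194), Ube2z (158), Ube2v1 (140), Ube2g2 (137) and Ube2l3 (127). The ranges of the 4 Inputs overlapped between each of these and the next in order, except that the lowest Input of Ube2m, 289, lay just above the highest of Ube2l6, 287. The K63 enzyme Ube2n stood at 16.7 and its cofactor Ube2v2 at 4.04. Ube2d2b, with 4 reads in all 8 libraries, and Ube2cbp, with 1, could not be assessed at this depth, and 24 genes had at least 10 reads in every library. Values below are read counts given in the same order as those of Cpeb4, untreated WT and KO first, and ratios are log2 ratios of counts scaled to the reads in regions with a symbol.

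Setting the WT RIP over the KO RIP asks which of these mRNAs were recovered more with the antibody where CPEB4 was present. A gene was called where the ratio lay past 0.5 in either direction and its 95% interval, which covers counting error only, left out 0. Of the 29 genes with at least 10 reads in the pair, 8 were called higher in the WT RIP and 3 lower in untreated BMDMs, beside 12.3% and 18.1% of all 8064 genes tested. The thresholds of the study were also applied, without its peak-score rule and to ratios scaled to the reads in regions with a symbol. The RPKM of the study are scaled to library totals instead. By these thresholds 2 were called higher and 1 lower untreated, beside 545 and 758 of all genes. With LPS, 9 were called higher and 6 lower, beside 16.4% and 21.7% of 8310. By the thresholds of the study, again not on library totals, these became 6 higher and 6 lower, beside 892 and 1243 of all genes. The median ratio of the tested Ube2 genes was 0.04 untreated and 0.18 with LPS, and that of all genes -0.10 and -0.04. Ube2d1, Ube2h, Ube2n and Ube2w were called higher in both treatments, beside 8.88% of 7463 genes, and Ube2g2, Ube2l6 and Ube2m lower in both, beside 11.6%, but on the library totals Ube2m in both treatments, Ube2g2 untreated and Ube2l6 with LPS lay above 0.

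These directions are relative to the 3′-UTR reads of each library, and so is the lack of a call. In the KO RIPs 27.5% (untreated) and 32.1% (LPS) of the library total, recovered from the RPKM of the authors, lay in the 3′-UTR regions, and in the WT RIPs 49.3% and 70.7%. Scaled to the library totals, the ratios of all genes moved up by 0.84 untreated and 1.14 with LPS, and 18 Ube2 genes were then called higher and 0 lower untreated, and 22 and 0 with LPS. Of all genes, 3444 of 8064 tested were then called higher and 153 lower untreated, and 4985 and 166 of 8310 with LPS. With TMM scaling, 9 Ube2 genes were called higher and 1 lower untreated, and 11 and 5 with LPS. Of all genes, TMM called 1494 higher and 925 lower untreated, and 2108 and 1290 with LPS. The 8 genes called higher untreated and the 9 called higher with LPS were also called under each of the 3 other scalings. The 3 and 6 genes called lower were no longer called lower on the library totals, so their direction describes their place among the 3′-UTR reads.

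**Figure D1:**
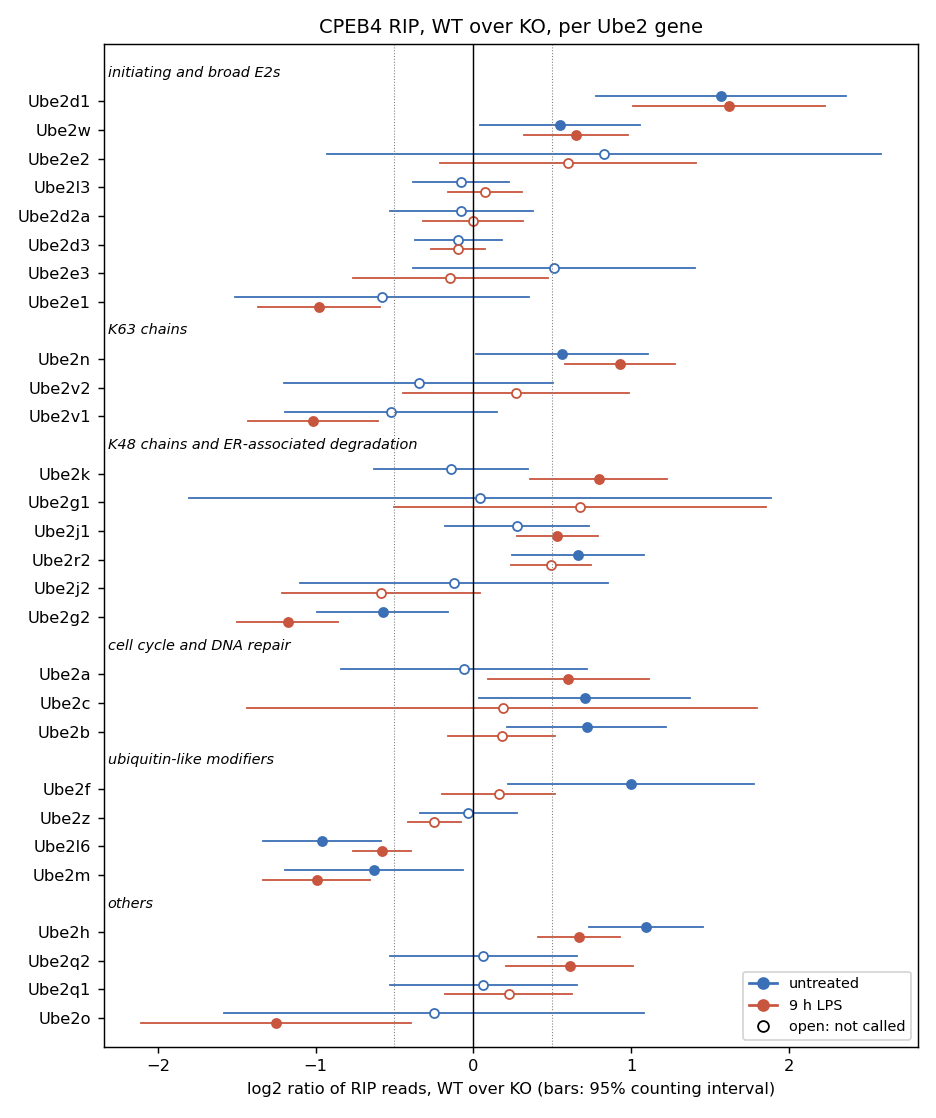
WT over KO log2 ratio of the RIP reads of 28 of the 29 Ube2 genes with at least 10 reads in a pair, grouped by role, in untreated (blue) and LPS-treated (red) BMDMs. Bars are 95% counting intervals, filled points are called genes, and dotted lines mark 0.5. Ube2d1 lies furthest to the right in both treatments (1.57 and 1.62), and Ube2l6, Ube2m and Ube2g2 lie left of 0 on this scale, where on the library totals Ube2m in both treatments, Ube2g2 untreated and Ube2l6 with LPS are above 0.

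Among the initiating and broad-range E2s, Ube2d1 stood apart from its close relatives. Ube2d1, which works with many RING-type E3s, held 147, 13, 210 and 23 RIP reads, or 88.2, 27.8, 84.3 and 26.4 CPM. Both WT RIPs were about 3 times the KO RIPs, with WT over KO folds of 2.97 (1.72 to 5.13) untreated and 3.07 (2.02 to 4.69) with LPS. The Inputs went the other way, with 25, 61, 34 and 44 reads and log2 ratios of -0.74 (-1.40 to -0.08) and -0.70 (-1.34 to -0.06). Divided by the Input ratio, the RIP ratio came to folds of 4.96 (2.43 to 10.1) untreated and 4.99 (2.71 to 9.20) with LPS. As log2 ratios these Input-corrected values were 2.31 (1.28 to 3.34) and 2.32 (1.44 to 3.20), the highest of the 28 genes tested in both. Its close relatives Ube2d2a and Ube2d3 were not called in either treatment. Ube2d2a had 168, 49, 304 and 106 RIP reads, 70, 109, 170 and 152 Input reads and Input-corrected ratios of 0.04 (-0.58 to 0.67) and 0.17 (-0.28 to 0.62). Whether reads were split between Ube2d2a and the sparse Ube2d2b, which shares its Ube2d2 name, was not tested. Ube2d3 had 449, 134, 1003 and 374 RIP reads, the most of the group, 64, 127, 207 and 206 Input reads and Input-corrected ratios of 0.37 (-0.14 to 0.88) and 0.23 (-0.09 to 0.56).

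Ube2w, known for modifying the amino terminus of proteins, held 192, 36, 403 and 89 RIP reads and 40, 49, 88 and 96 Input reads. It was called higher in the WT RIP with ratios of 0.55 (0.04 to 1.06) untreated and 0.65 (0.32 to 0.98) with LPS. Ube2e1, of the E2s with an amino-terminal extension, held 30, 12, 131 and 90 RIP reads and 3, 8, 18 and 29 Input reads, and its RIP ratio with LPS was -0.98 (-1.36 to -0.59) and 0.16 on the library totals. Its Input ratio with LPS was -1.0 (-1.82 to -0.17), so that the Input-corrected ratio was 0.02 (-0.90 to 0.93). The whole Ube2e1 region, 620 bases, lies in an exon of Nkiras1 on the opposite strand, and since the use of strand in the counting is not given in the sources used here, its reads may belong to either gene. Ube2e2 had 18, 2, 64 and 14 RIP reads and no call in either treatment. Ube2l3, which serves RING-between-RING E3s such as those of the linear chain complex and Parkin, held 380, 112, 583 and 193 RIP reads and 260, 360, 509 and 389 Input reads, with ratios of -0.08 (-0.38 to 0.22) and 0.07 (-0.16 to 0.31), intervals that leave out a change past 0.5 on this scale, where on the library totals both values lie past it.

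The catalytic and the cofactor subunits of the K63 pair lay on opposite sides in the RIPs on this scale. Ube2n, the catalytic E2, held 167, 31, 424 and 77 RIP reads and 42, 71, 112 and 98 Input reads. Its ratio was 0.56 (0.01 to 1.10) untreated and 0.93 (0.58 to 1.28) with LPS, and 0.79 (0.02 to 1.56) and 1.08 (0.55 to 1.60) after Input correction. Ube2v1, the cofactor paired with it in NF-κB signalling, held 61, 24, 112 and 79 RIP reads and 161, 216, 462 and 356 Input reads. Its ratio was -0.52 (-1.19 to 0.15) untreated, with no call, and -1.02 (-1.43 to -0.60) with LPS, or 0.12 on the library totals. Of the Ube2v1 region, 1251 bases are shared with the gene Gm20431 on the same strand, so its reads are uncertain between the annotations. Ube2v2, the other cofactor, held 41, 14, 68 and 19 RIP reads and 11, 21, 30 and 25 Input reads and was called in neither treatment, with intervals from -1.20 to 0.50 and from -0.45 to 0.99 that do not settle a direction.

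Of the 6 E2s of K48 chains and of endoplasmic reticulum-associated degradation (ERAD), 1 was called higher and 1 lower untreated, beside the 12.3% and 18.1% of all genes, and 2 higher and 1 lower with LPS, beside 16.4% and 21.7%, counts too small to set the group apart. Ube2r2, a partner of cullin E3s, held 298, 52, 622 and 154 RIP reads and 118, 156, 314 and 263 Input reads, and its Input-corrected ratio was 0.55 (0.01 to 1.09) untreated and 0.57 (0.23 to 0.92) with LPS. Ube2j1, anchored in the endoplasmic reticulum, held 202, 46, 624 and 150 RIP reads and 80, 142, 331 and 275 Input reads, and was called with LPS alone, with a RIP ratio of 0.53 (0.28 to 0.79). Ube2k held 141, 43, 252 and 50 RIP reads and 29, 38, 72 and 74 Input reads, with RIP ratios of -0.14 (-0.63 to 0.35) untreated and 0.80 (0.36 to 1.23) with LPS. Ube2g2, an E2 of ERAD, went the other way, with 157, 65, 176 and 139 RIP reads and 217, 224, 407 and 256 Input reads. Its RIP ratio was -0.57 (-0.99 to -0.16) untreated and -1.18 (-1.5 to -0.86) with LPS, or 0.27 and -0.04 on the library totals. The Input-corrected ratio was -1.04 (-1.53 to -0.55) and -1.51 (-1.90 to -1.12). Ube2g1, with a region of 37 bases, and Ube2j2 had no call in this ratio.

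In the group of cell cycle and DNA repair, Ube2b, a partner of the DNA repair E3 Rad18, held 216, 36, 297 and 91 RIP reads and 37, 56, 76 and 74 Input reads, and was called higher untreated at 0.72 (0.22 to 1.22), where the ratio with LPS was 0.18 (-0.16 to 0.52). Its paralog Ube2a, with 57, 16, 164 and 37 RIP reads and 20, 19, 58 and 31 Input reads, was called with LPS at 0.60 (0.09 to 1.11) and lay at -0.06 (-0.84 to 0.72) untreated. The Input-corrected ratio of Ube2a with LPS was 0.06 (-0.75 to 0.86). Ube2c, the mitotic E2 of the anaphase-promoting complex, held 121, 20, 12 and 3 RIP reads and was called higher untreated at 0.71 (0.04 to 1.37). Ube2t, an E2 of the Fanconi anemia pathway, had 5, 2, 0 and 0 RIP reads, under the minimum of 10.

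The E2s of ubiquitin-like modifiers held both called directions. Ube2l6 had 162, 88, 669 and 349 RIP reads, or 97.2, 188, 268 and 400.5 CPM, so that each KO RIP was above the WT RIP of the same treatment. Its RIP ratio was -0.96 (-1.33 to -0.59) untreated and -0.58 (-0.77 to -0.39) with LPS, or -0.12 and 0.56 on the library totals, while its Inputs, 105, 135, 555 and 426 reads, gave 0.15 (-0.21 to 0.52) and 0.04 (-0.14 to 0.23). Ube2m had 82, 35, 167 and 116 RIP reads and 164, 189, 462 and 366 Input reads, and its RIP ratio was -0.63 (-1.19 to -0.06) and -0.99 (-1.33 to -0.65), or 0.21 and 0.15 on the library totals. Ube2f, the other NEDD8 E2, had 106, 14, 261 and 81 RIP reads and 42, 43, 157 and 117 Input reads, and was called higher untreated at 1.0 (0.22 to 1.78), with 0.52 (-0.47 to 1.51) after Input correction. Ube2z, which can take both ubiquitin and FAT10, had 372, 106, 958 and 397 RIP reads and 290, 410, 1077 and 885 Input reads, with RIP ratios of -0.03 (-0.34 to 0.28) and -0.25 (-0.42 to -0.08) and no call.

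Of the other genes, Ube2h, the E2 of the Maea-Rmnd5a (GID/CTLH) E3 complex, gave the second-highest Input-corrected ratio untreated. It held 524, 68, 645 and 141 RIP reads, or 315, 145, 259 and 162 CPM, and 222, 329, 385 and 355 Input reads. The RIP ratio was 1.09 (0.73 to 1.46) untreated and 0.67 (0.41 to 0.93) with LPS, and the Inputs differed by less than the limit of 0.5. Its RIP over Input ratio in WT was not called, at 0.39 (0.17 to 0.62) untreated and 0.35 (0.17 to 0.53) with LPS. In KO this ratio was called lower, at -0.75 (-1.13 to -0.38) and -0.54 (-0.82 to -0.26). Ube2q2 held 107, 28, 261 and 59 RIP reads and 29, 59, 74 and 74 Input reads, and was called with LPS at 0.61 (0.21 to 1.01). Ube2o, a large enzyme with both E2 and E3 activity, held 17, 5, 23 and 19 RIP reads and 10, 23, 55 and 45 Input reads, and its ratio with LPS was -1.25 (-2.11 to -0.40), or -0.11 on the library totals.

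**Figure D2:**
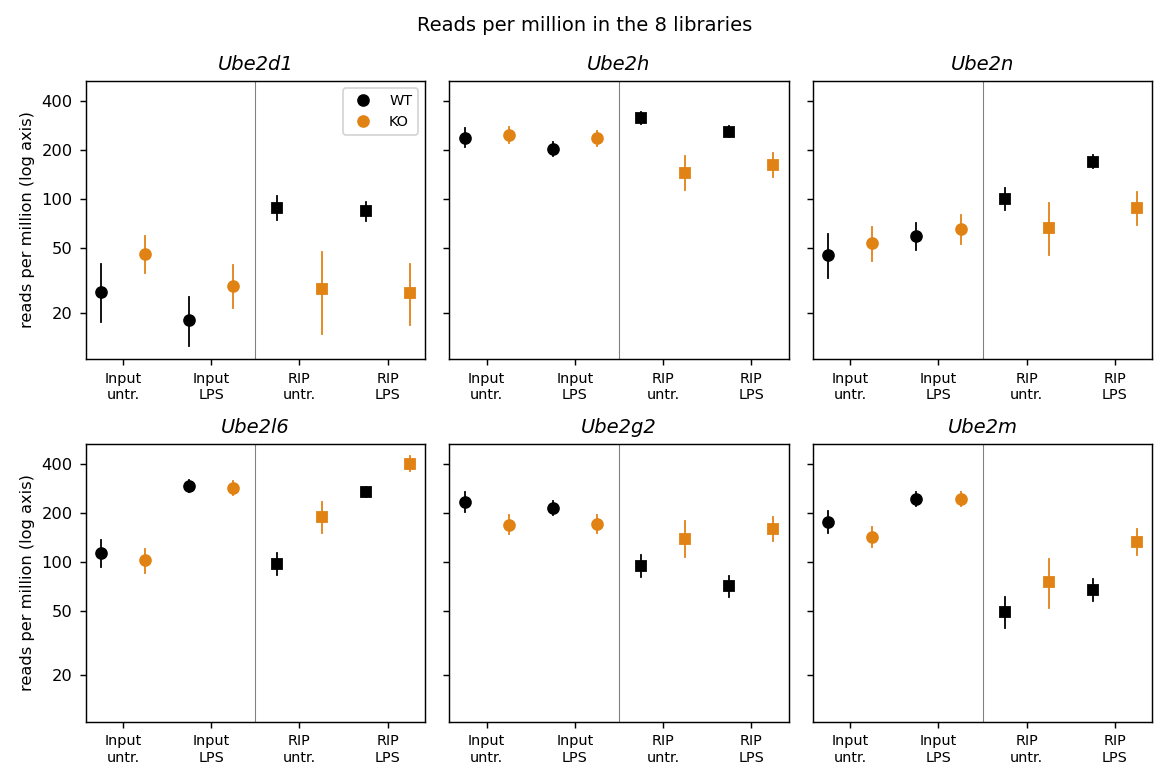
CPM (log axis) of 6 Ube2 genes in the 8 libraries, WT in black and KO in orange, with Inputs as circles on the left and RIPs as squares on the right of each panel. Bars are exact 95% Poisson intervals of the count, and each point is 1 library. For Ube2d1 the 2 WT RIPs (88.2 and 84.3) lie above all other libraries, and for Ube2l6 both KO RIPs (188 and 400.5) lie above the WT RIPs of the same treatment.

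The Input-corrected ratio, the RIP ratio minus the Input ratio, takes out differences in the RNA level between cultures. Of 28 genes tested, 5 were called higher and 3 lower untreated, beside 14.5% and 16.1% of 7201 genes, and 9 higher and 5 lower with LPS, beside 14.1% and 21.4% of 7575. Ube2d1, Ube2h, Ube2n and Ube2r2 were called higher in both treatments, beside 9.00% of 6648 genes, and Ube2g2, Ube2l6 and Ube2m lower in both, beside 10.9%, but on the library totals Ube2l6 and Ube2m lay above 0 with LPS. TMM scaling gave 9 and 3 untreated and 12 and 3 with LPS, and the library totals gave 17 and 0, and 21 and 0. Of all genes, TMM gave 1391 and 835 untreated and 1737 and 1091 with LPS. The library totals gave 2852 and 190, and 4070 and 133, of all genes. Between the cultures, fewer genes were called in the Inputs than in the RIPs. Untreated, 0 genes were called higher and 1 lower (Ube2d1) in the WT Input of 28 tested, beside 3.25% and 4.83% of 7845. With LPS 0 were called higher and 3 lower, among them Ube2d1 and Ube2e1, beside 5.19% and 4.09% of 8151.

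The prediction classes were set beside all genes of the same class. Of 10 tested Ube2 genes with repression alone, 4 were called higher in the WT RIP untreated and 5 with LPS, with 0 called lower, where 18.9% and 27.4% of all genes of this class were called higher and 8.47% and 7.63% lower. Of 17 without a prediction, 4 were higher and 2 lower untreated, and 3 higher and 5 lower with LPS, where 381 of all 4859 such genes were higher and 1197 lower untreated, and 509 and 1521 of 5075 with LPS. The class median of the Ube2 genes was 0.41 untreated and 0.57 with LPS for repression, against 0.17 and 0.30 in all genes of the class, and -0.06 and 0.07 without a prediction, against -0.31 and -0.33. The 2 tested genes with a predicted activation split with LPS, Ube2q2 higher and Ube2g2 lower. Ube2d1 and Ube2r2 stood among the genes called higher without a prediction, and Ube2z and Ube2d2a, with a repression pair, were not called. In the untreated KO RIP over Input, 4 of 10 Ube2 genes with repression alone were higher and 1 lower, and 4 and 2 of 16 without a prediction. Of all genes, 31.1% with repression alone were higher there and 8.42% lower, against 16.3% and 17.0% without a prediction. With LPS these were 35.4% and 7.69%, against 16.4% and 22.1%.

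By the number of consensus CPEs, the 12 Ube2 genes with 3 or more gave 4 called higher and 0 lower untreated, and 7 and 0 with LPS, where 562 of 2703 such genes of the whole table were called higher and 191 lower untreated, and 808 and 176 of 2698 with LPS. The 4 tested genes with no consensus CPE gave 1 higher (Ube2c) and 2 lower (Ube2l6 and Ube2m) untreated and 0 and 2 with LPS, where 129 of 2565 such genes of the whole table were called higher and 788 lower untreated, and 149 and 1086 of 2753 with LPS. The 13 tested genes with 1 or 2 gave 3 higher and 1 lower untreated and 2 and 4 with LPS, where 300 and 480 of 2796, and 406 and 539 of 2859, were called. In the KO RIP over Input, the 12 Ube2 genes with 3 or more gave 6 higher and 1 lower untreated, and 4 and 1 with LPS. Of all genes with 3 or more, 820 of 2522 were higher and 202 lower untreated, and 906 and 182 of 2485 with LPS. With no consensus CPE, 312 of all 2624 genes were higher and 494 lower untreated, and 337 and 727 of 2776 with LPS. Over all genes, recovery without CPEB4 thus also went with the number of CPEs. Over 28 genes, Spearman's rho between the number of consensus CPEs and the Input-corrected ratio was 0.24 untreated and 0.71 with LPS. The points share the same libraries, and the ratio with LPS also went with the number of AUUUA motifs (rho of 0.46), with GC content (-0.48) and with region length (0.31), so these features cannot be told apart here.

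**Figure D3:**
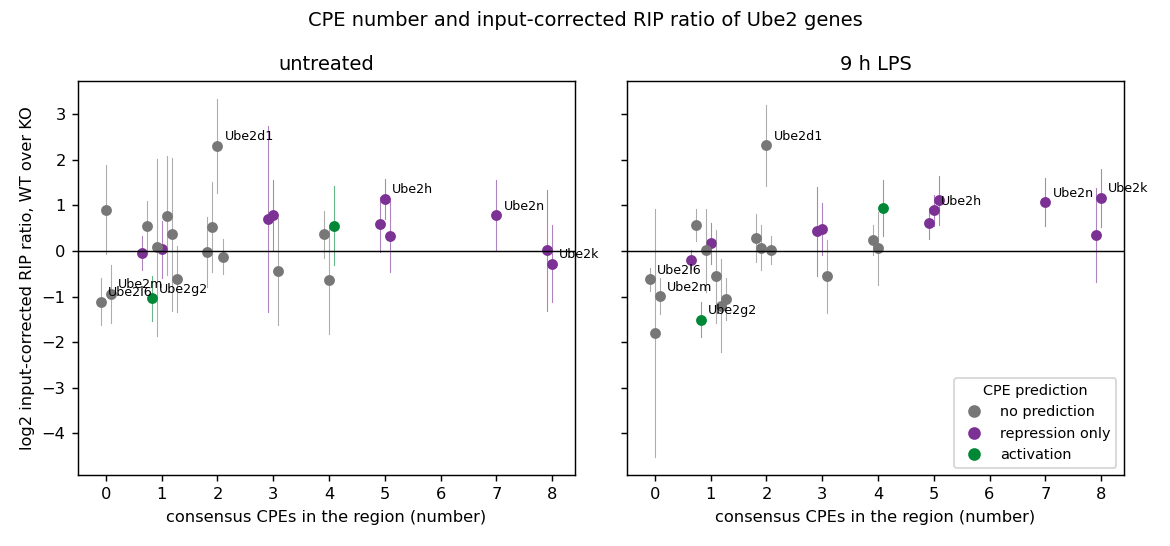
Input-corrected log2 RIP ratio, WT over KO, of 27 of the 28 Ube2 genes tested against the number of consensus CPEs in the region, untreated (left) and with 9 h of LPS (right). Colours give the CPE prediction, bars are 95% counting intervals, and points of one number are spread sideways. Ube2d1, with 2 consensus CPEs and no prediction, is the highest point of both panels (2.31 and 2.32), and with LPS Ube2k, Ube2n and Ube2h lie above 0 at 5 to 8 CPEs.

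The RIP over Input ratio compares the RNA with the antibody against the lysate of the same culture. In WT BMDMs 12 of 29 genes were called higher in the RIP and 4 lower untreated, beside 27.3% in each direction for all 8359 genes, and 15 higher and 6 lower with LPS, beside 29.2% and 32.7% of 8767. In KO BMDMs 8 were higher and 3 lower of 28 untreated, beside 20.8% and 14.6% of 7708, and 6 higher and 4 lower of 27 with LPS, beside 22.1% and 18.0% of 7861. On the library totals the splits of the KO RIPs turned to 3 higher and 12 lower in untreated cells and became 2 and 14 under LPS. That of the WT RIP with LPS became 19 and 4, or 18 and 4 with TMM. Of all genes, the library totals gave 524 higher and 3264 lower in the untreated KO RIP, and 575 and 3498 with LPS. In the WT RIP with LPS they gave 3747 and 1821 of all genes, and TMM 3103 and 2349. Ube2d3 and Ube2e1 were high in the RIPs of both genotypes: Ube2d3 gave 1.95 (1.57 to 2.32) in WT and 1.58 (1.23 to 1.93) in KO without LPS, and 1.88 (1.66 to 2.09) and 1.64 (1.40 to 1.89) with LPS. Ube2d1 was called high in the WT RIPs, with 1.67 (1.06 to 2.27) and 2.2 (1.68 to 2.71), against -0.64 (-1.48 to 0.19) and -0.12 (-0.84 to 0.59) in KO, and the difference of the genotypes is its Input-corrected ratio given above. Ube2v1 and Ube2m were called lower in the RIP in both genotypes and treatments, Ube2v1 at -2.43 (-2.73 to -2.13) in WT and -1.37 (-1.72 to -1.02) in KO with LPS. Spearman's rho of this ratio with GC content was -0.83 untreated and -0.89 with LPS in WT, and -0.78 in both treatments in KO. The GC content was 54.7% in Ube2v1 and 57.9% in Ube2m, and 34.6% in Ube2d3 and 33.9% in Ube2e1. A role of GC content in the recovery was not tested.

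The LPS change of the Input asks which E2 mRNAs changed in level after 9 h. In WT BMDMs 7 of 28 genes were called higher with LPS and 1 lower, beside 17.1% and 23.3% of 8163 genes, and in KO BMDMs 15 were higher and 2 lower, beside 18.2% and 26.8% of 8250. With TMM scaling, 12 were called higher in WT and 18 in KO, with 1 lower in each. Of all genes, TMM called 1764 higher and 1515 lower in WT, and 2010 and 1621 in KO. The median change of the tested Ube2 genes was 0.35 in WT and 0.52 in KO, and that of all genes -0.08 and -0.18. The change in WT minus that in KO was called for 0 of 28 genes in the Input, beside 5.90% higher and 3.62% lower of 7294, so the unequal counts are not shown to be a difference between the genotypes.

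The genes called higher in both genotypes were Ube2d3, Ube2e2, Ube2f, Ube2j1, Ube2l6, Ube2o and Ube2z, and 13.7% of 7867 genes were called higher in both. Ube2l6 went from 113 to 293 CPM, and from 102 to 284 in KO, with log2 changes of 1.36 (1.06 to 1.66) and 1.47 (1.19 to 1.75). Ube2z went from 312 to 568 and from 309 to 589 CPM, and its changes were 0.86 (0.67 to 1.05) and 0.93 (0.76 to 1.10). Ube2f gave 0.85 (0.36 to 1.33) and 1.24 (0.74 to 1.74), Ube2j1 1.0 (0.66 to 1.35) and 0.77 (0.48 to 1.06), and Ube2d3 0.65 (0.25 to 1.05) and 0.51 (0.20 to 0.83). Ube2e2, with 12, 16, 64 and 45 Input reads, gave 1.29 (0.43 to 2.15) and 1.26 (0.45 to 2.06), and Ube2o 1.32 (0.39 to 2.25) and 0.76 (0.05 to 1.47). All 5 E2s of ubiquitin-like modifiers were called higher in KO and 3 of them in WT, where Ube2m gave 0.46 (0.20 to 0.71), just under the limit.

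Ube2c was the 1 gene of 28 called lower in both genotypes, beside 17.8% of 7867 genes. It held 24, 40, 9 and 1 Input reads, with changes of -2.35 (-3.41 to -1.29) and -4.54 (-6.58 to -2.49). With 1 read left in the KO Input, the second value rests on counting error and on the read added to each library. Whether fewer cells held this mitotic transcript or each cell held less of it cannot be told apart in bulk RNA. Ube2d1 had ratios of -0.60 (-1.33 to 0.13) in WT and -0.64 (-1.20 to -0.09) in KO. Among the K63 enzymes Ube2n gave 0.36 (-0.14 to 0.87) and 0.28 (-0.16 to 0.72), Ube2v1 0.48 (0.23 to 0.74) and 0.54 (0.29 to 0.78), and Ube2v2 0.34 (-0.62 to 1.30) and 0.06 (-0.76 to 0.88). Ube2l3 gave -0.06 (-0.28 to 0.15) and -0.07 (-0.28 to 0.14), the narrowest intervals of the genes with no call in either genotype. Ube2d2a gave 0.24 (-0.16 to 0.64) and 0.30 (-0.06 to 0.65).

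**Figure D4:**
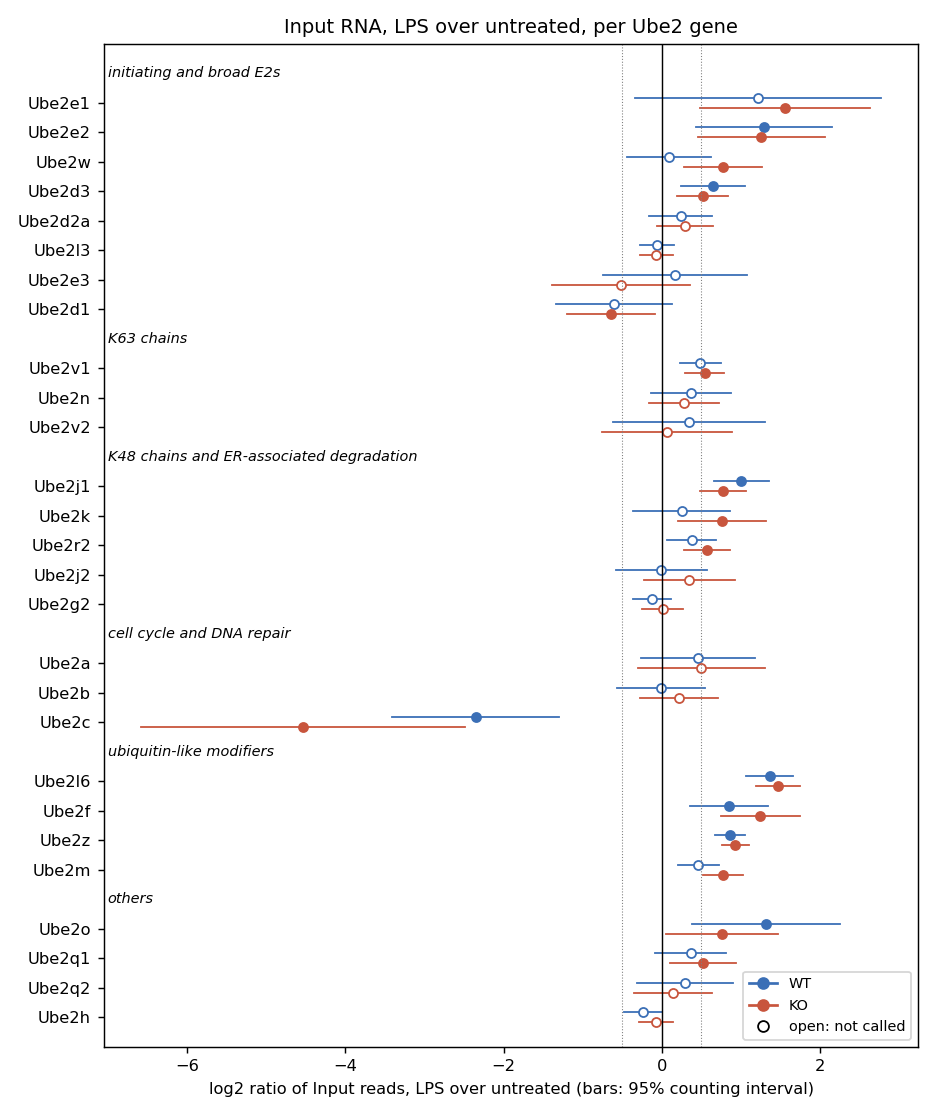
LPS over untreated log2 ratio of the Input reads of 27 of the 28 Ube2 genes with at least 10 reads in a pair, grouped by role, in WT (blue) and KO (red) BMDMs. Bars are 95% counting intervals, filled points are called genes, and dotted lines mark 0.5. Ube2l6 and Ube2z lie right of 0.5 with both genotypes close together, and Ube2c lies far left (-2.35 and -4.54).

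In the RIPs, 10 of 29 genes were called higher with LPS and 1 lower in WT, beside 16.7% and 29.7% of 8901 genes, and 9 higher and 2 lower of 28 in KO, beside 15.5% and 24.4% of 7227. Other scalings gave 18 to 22 higher in WT, and 12 higher and 1 lower in KO. Of all genes, these scalings called 2057 to 2931 higher and 1268 to 1897 lower in WT. In KO they called 1459 to 1611 higher and 1186 to 1319 lower. Ube2l6 followed its Input, with 1.46 (1.21 to 1.71) in WT and 1.08 (0.74 to 1.41) in KO. Ube2n gave 0.76 (0.50 to 1.02) in the WT RIP, where its Input was not called. Ube2q2 gave 0.70 (0.37 to 1.02) and Ube2a 0.93 (0.50 to 1.36) in the WT RIP. Their WT Inputs were also not called, at 0.29 (-0.32 to 0.90) for Ube2q2 and 0.46 (-0.26 to 1.18) for Ube2a. For Ube2n, Ube2q2 and Ube2a the RIP and Input intervals overlapped, and a difference between the assays was not tested. Ube2d1 stayed within 0.5 of 0 in the WT RIP, at -0.07 (-0.37 to 0.23). Ube2c gave -3.81 (-4.64 to -2.99) in WT and -3.29 (-4.83 to -1.75) in KO. The change in WT minus that in KO was called higher for 1 of 29 genes (Ube2k) and lower for 1 (Ube2g2) in the RIPs, beside 4.41% of 7463 genes in each direction.

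The partners of these E2s were taken from lists of E1s, ubiquitin and ubiquitin-like proteins, E2-fold proteins with other symbols and E3s. Of the 11 ubiquitin and ubiquitin-like genes, 4 were called higher with LPS and 1 lower in the WT Input and 6 and 0 in KO, of 10 tested. Of the 9 E1 genes in the table, 2 were higher and 3 lower in WT and 2 and 2 in KO, of 8 tested. Of the 37 E3 genes, 8 were higher and 6 lower in WT and 6 and 7 in KO, of 34 tested. Of all genes, 17.1% were higher and 23.3% lower in WT and 18.2% and 26.8% in KO. The ISG15 route, grouped here after its values were seen, was called higher with Ube2l6 for 3 of 4 further genes. Isg15 itself went from 2 to 172 Input reads in WT and from 4 to 122 in KO (4.82, 3.17 to 6.47, and 4.44, 3.15 to 5.73), its E1 Uba7 gave 1.29 (0.31 to 2.27) and 1.0 (0.22 to 1.78), and the E3 Herc6 3.89 (2.23 to 5.55) and 3.46 (2.26 to 4.66). The E3 Trim25 gave 0.11 (-0.04 to 0.26) and 0.03 (-0.12 to 0.17).

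In the RIPs, 5 of 10 ubiquitin and ubiquitin-like genes were called lower in WT over KO and 2 higher untreated, and 7 of 11 lower and 1 higher with LPS. Of all genes, 18.1% were lower and 12.3% higher untreated, and 21.7% and 16.4% with LPS. On the library totals, 1 of this list was called lower and 3 higher untreated, and 1 and 4 with LPS. On that scale 153 of all 8064 genes were called lower and 3444 higher untreated, and 166 and 4985 of 8310 with LPS. Nedd8 lay at -0.80 (-1.59 to -0.00) untreated, a value that turns above 0 on the library totals, and at -1.63 (-2.2 to -1.06) with LPS. Ubb, one of the polyubiquitin genes, lay at -2.83 (-4.38 to -1.28) and -1.86 (-2.60 to -1.12), while the SUMO gene Sumo2 lay at 1.81 (0.77 to 2.85) and 1.36 (0.83 to 1.88). Of 8 E1 genes tested, 1 was called higher and 0 lower untreated, and 3 higher and 3 lower with LPS, or 4 and 0 in each treatment on the library totals. Of 32 E3 genes tested, 2 were called higher and 4 lower untreated, and 8 and 4 with LPS, among them Peli1, a partner of Ube2n, at 0.99 (0.77 to 1.22) with LPS. On the library totals, 19 E3 genes were called higher and 0 lower untreated, and 24 and 0 with LPS. These counts stand beside 3444 of 8064 and 4985 of 8310 genes called higher on that scale. Of the 8 E2-fold proteins with other symbols, Cdc34 was called higher and Birc6 lower untreated, and Ufc1 lower with LPS, where on the library totals 2 were higher and 0 lower untreated, and 5 and 0 with LPS.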

How the data were processed

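Single-end reads were aligned by the authors, per the labels and the study's methods, to mm10 with Bowtie2 2.2.2 in local mode. They removed duplicates and deposited the count of reads per Ensembl 3′-UTR region and library, identical in 4 of 4 tables. Lanes were summed before deposit. The deposited region length is another value of the tables, in bases, and the deposited RPKM is used here to recover the library totals of the authors. The deposited fold changes, p-values with their Benjamini-Yekutieli adjustment and peak scores are the authors' own comparisons and are not used. Overlapping isoforms count a read more than once, and the use of strand is not given in the sources used here.

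The region of a symbol with the most reads over the 8 libraries was taken (ties: the longer). Rows without a symbol, 0.902% to 1.04% of the reads, were left out. Ratios used counts scaled to the remaining sum after adding 1 read, with normal 95% intervals from the counts, for genes with at least 10 reads in the pair. No test across samples is possible with 1 library per group. The depth, 467696 to 2492300 reads, sets the intervals, which cover counting error only, and 3 reads correspond to 1.20 to 6.41 CPM (reads scaled to 1000000). The calls were tested on simulated data that held counting error only, so differences between cultures or precipitations were not covered. CPE counts from the genome sequence equalled those of the authors for 32 of 32 regions. Of the transcripts, 31 are in GENCODE M21. Alternatives were TMM (edgeR 4.0.16), median-of-ratios scaling, the library totals, 0.1 reads added, no read minimum or 50 reads, and the longest region. The thresholds of the study were also applied, with a chi-square test and without its peak-score rule. They were applied to counts scaled to the reads in regions with a symbol, not to the library totals of the study's RPKM. Some values are not reported here, though counts and medians cover all members. Other full values are given for members called in the RIP or Input-corrected ratio, those whose Input changed alike in both genotypes, and a set of further members. The members and lists were chosen with earlier results of these data known. Python 3.11.15, numpy 2.4.6, pandas 2.3.3 and R 4.3.3 were used.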

Additional observations from a re-analysis of the deposited data

Results flagged for a closer look

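For 2 of 29 genes the LPS change of the RIP differed between the genotypes by an interval that left out 0, beside 4.41% of all 7463 genes in each direction. The difference, WT minus KO, was 0.937 (0.28 to 1.59) for Ube2k, whose RIP changed by 0.25 in WT and by -0.69 in KO, and -0.604 (-1.13 to -0.08) for Ube2g2, with -0.42 and 0.19. The intervals cover counting error between 4 libraries, and neither difference has a replicate check.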

How the results depend on the processing

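No paired analysis was possible because each group held 1 library, and the shared numbers of the samples are lanes. Leaving out a replicate was likewise not possible, and the cause of the changes below was not tested. Of 150 gene values reported here, 148 kept direction and call with 0.1 reads added, 150 with no read minimum, 144 with median-of-ratios scaling, 140 with TMM, 137 with at least 50 reads, 144 of 144 with the longest region and 120 on the library totals, and 92 of 129 with the thresholds of the study. TMM moved the RIP ratios of all genes by 0.22 untreated and 0.24 with LPS.

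On the library totals, the Ube2 genes called went from 11 to 18 in the untreated RIP ratio, from 8 to 17 in its Input-corrected form, from 10 to 16 in RIP over Input of KO with LPS, and from 11 to 23 in the LPS change of the WT RIP, where TMM gave 20 and median-of-ratios scaling 19. TMM raised the LPS change of the WT Input from 8 to 13. The thresholds of the study were applied with a chi-square test of 2 libraries, on counts scaled to the reads in regions with a symbol. They gave 3 in the untreated RIP ratio, 0 in the Input ratio untreated (1 in the text above) and 0 with LPS (3 above). In RIP over Input of untreated KO they gave 7 of 11. In the LPS change they gave 10 of 17 for the KO Input and 6 of 11 for the KO RIP.

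On the library totals the RIP ratio turned to 0.27 for Ube2g2 and 0.21 for Ube2m untreated, and with LPS to 0.16 for Ube2e1, 0.56 for Ube2l6, 0.15 for Ube2m and 0.12 for Ube2v1. The Input-corrected ratio with LPS turned to 0.57 for Ube2l6, 0.21 for Ube2m and 0.14 for Ube2v1, and RIP over Input of Ube2w in KO with LPS to -0.0063. The longest Ube2c region, with at most 2 reads in a library, was under the read minimum and gave no value.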
